A study of Mus musculus with 12 samples.

Results

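The 42 genes described here are cell cycle and proliferation genes, chosen by name from the knowledge of what their products do and read from the deposited count table by their Entrez Gene IDs. The choice was made with earlier results of these data known. The 42 are therefore not a list independent of these data. The genes are 14 of DNA replication, called S phase genes below, 25 of G2 and mitosis and 3 transcription factors of the cell cycle. All 42 were among the 19792 genes of the table and among the 16352 genes that passed the filter on low counts. RNA came from whole gonadal white adipose tissue (gWAT) of male mice and was sequenced in 12 libraries, 3 in each of 4 groups. KO-HFD was gWAT of Gja1floxed Csf1r creER mice (Cx43-MKO) given a high-fat diet for 8 weeks, WT-HFD was gWAT of Gja1floxed mice without CreER on the same diet, and KO-NCD and WT-NCD were the same genotypes on normal chow. The diets began at an age of 6 weeks. Every mouse therefore carried floxed Gja1, the gene of the gap junction protein connexin 43, and WT here means no CreER. The Csf1r promoter that drives the CreER is active in macrophages and other mononuclear phagocytes, so adipocytes and other cells without Csf1r expression were not targeted by design. The stock name of the transgenic line is an FVB one, while the labels give C57BL/6 for all mice. Tamoxifen, which activates CreER, is listed for the KO samples alone in the treatment labels, while the study's methods give it to both genotypes. The sources also disagree on its timing, which the treatment protocol places within the weeks of HFD feeding and the methods before the experiments began. Nothing in the labels says that the libraries of a group came from separate mice, so the p-values measure the spread between these libraries, which may be technical.

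A dividing cell copies its DNA in S phase and parts the copies in mitosis. For replication, the MCM helicase (Mcm2 to Mcm7) is loaded at origins with Cdc6 and switched on with Cdc45, ribonucleotide reductase (Rrm1, Rrm2) and thymidylate synthase (Tyms) supply nucleotides, and the clamp Pcna holds the polymerase on its template. E2F factors switch these genes on after cyclin E (Ccne1, Ccne2) and Cdk2 have inactivated the retinoblastoma protein. Later, Cdk1 with cyclins A and B drives mitosis, the Aurora and Polo kinases and the kinesins build the spindle, and the anaphase-promoting complex with Cdc20 and Ube2c ends it. The genes of this second wave share promoter elements, the CCAAT box and the cell cycle genes homology region (CHR), through which Mybl2, Foxm1 and the MuvB complex act. Adipose tissue macrophages of obese mice are known to divide in the tissue as well as to arrive from blood, and adipocyte progenitors also divide early in HFD feeding, whereas mature adipocytes do not divide.

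The promoter elements are visible in the windows of 7 genes, chosen because 6 of them were called lower in KO-HFD against WT-HFD or in the difference of the diet responses, and because Cdc45 was the only one of the 42 to fall in WT-HFD. Each window runs from 250 bases before to 50 bases after the transcription start in RefSeq on GRCm38.p6, written in the direction of the gene. Capitals mark CCAAT, the CHR letters TTTGAA or TTCGAA, and the E2F site letters TTTCCCGC, TTTCGCGC, TTTGCCGC or TTTGGCGC, each on either strand. The windows lie at chr11:99024140-99024439 for Top2a (minus strand), chr5:30666636-30666935 for Cenpa (plus strand), chr19:37376132-37376431 for Kif11 (plus strand), chr6:88898731-88899030 for Mcm2 (minus strand), chr1:20820263-20820562 for Mcm3 (minus strand), chr1:128359656-128359955 for Mcm6 (minus strand) and chr16:18811923-18812222 for Cdc45 (minus strand).
Top2a: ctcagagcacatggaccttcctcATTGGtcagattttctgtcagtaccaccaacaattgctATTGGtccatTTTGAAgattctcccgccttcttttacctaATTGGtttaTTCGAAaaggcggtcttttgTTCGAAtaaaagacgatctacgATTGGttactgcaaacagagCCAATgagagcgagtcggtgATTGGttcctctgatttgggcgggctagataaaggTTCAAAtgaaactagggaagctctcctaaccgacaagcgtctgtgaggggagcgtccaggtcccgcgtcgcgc
Cenpa: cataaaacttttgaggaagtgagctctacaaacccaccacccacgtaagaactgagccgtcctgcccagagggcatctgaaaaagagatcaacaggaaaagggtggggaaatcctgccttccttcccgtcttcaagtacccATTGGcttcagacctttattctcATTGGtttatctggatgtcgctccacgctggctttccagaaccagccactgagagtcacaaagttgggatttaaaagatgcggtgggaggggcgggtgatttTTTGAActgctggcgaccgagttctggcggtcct
Kif11: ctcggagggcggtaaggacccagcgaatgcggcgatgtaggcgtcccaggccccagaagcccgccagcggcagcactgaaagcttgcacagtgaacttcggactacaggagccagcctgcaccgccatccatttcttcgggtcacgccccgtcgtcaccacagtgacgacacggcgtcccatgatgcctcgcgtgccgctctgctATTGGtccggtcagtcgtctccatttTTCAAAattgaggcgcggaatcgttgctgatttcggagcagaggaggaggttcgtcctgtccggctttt
Mcm2: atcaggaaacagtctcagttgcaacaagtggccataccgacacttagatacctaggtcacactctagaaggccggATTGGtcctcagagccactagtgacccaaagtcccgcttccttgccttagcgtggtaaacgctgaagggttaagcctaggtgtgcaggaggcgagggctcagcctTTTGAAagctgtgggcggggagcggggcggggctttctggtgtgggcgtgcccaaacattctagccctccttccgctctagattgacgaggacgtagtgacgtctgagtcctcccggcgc
Mcm3: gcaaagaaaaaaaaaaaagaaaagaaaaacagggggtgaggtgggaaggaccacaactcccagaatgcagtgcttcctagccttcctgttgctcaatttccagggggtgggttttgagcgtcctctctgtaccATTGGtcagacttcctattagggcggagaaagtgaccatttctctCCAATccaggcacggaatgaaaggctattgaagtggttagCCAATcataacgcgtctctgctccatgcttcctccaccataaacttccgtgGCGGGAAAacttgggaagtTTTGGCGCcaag
Mcm6: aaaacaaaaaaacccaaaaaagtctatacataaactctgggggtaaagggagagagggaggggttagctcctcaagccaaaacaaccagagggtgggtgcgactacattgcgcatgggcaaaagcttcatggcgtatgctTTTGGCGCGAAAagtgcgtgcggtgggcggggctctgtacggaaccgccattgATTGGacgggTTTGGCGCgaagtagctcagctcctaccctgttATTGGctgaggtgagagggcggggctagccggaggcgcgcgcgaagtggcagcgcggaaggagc
Cdc45: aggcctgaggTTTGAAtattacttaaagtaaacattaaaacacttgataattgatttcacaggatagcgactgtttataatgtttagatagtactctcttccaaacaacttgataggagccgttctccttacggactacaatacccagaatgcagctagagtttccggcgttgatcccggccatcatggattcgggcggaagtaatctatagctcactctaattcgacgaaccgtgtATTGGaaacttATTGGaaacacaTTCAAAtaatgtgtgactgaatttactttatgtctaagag

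Of the 42 genes, 35 had such a window, and Kif20a, Aurkb, Ccne2, Mcm4, Foxm1, Ccna2 and Tpx2 had none in the table used. Shares are of genes with a window, and Prc1 and Mcm7, with more than 1 window, count as holding a motif where any of theirs does. CHR letters stood in 17 of 21 G2 and mitosis genes (81.0%), in 3 of 12 S phase genes (25%) and in 17.2% of the 12783 tested genes with a window. CCAAT stood in 19 of 21 mitosis genes (90.5%), in 9 of 12 S phase genes (75.0%) and in 42.3% of tested genes. All 17 mitosis genes with CHR letters also held CCAAT, as in Top2a with 6 CCAAT and 4 CHR matches, against 7.0% of tested genes with both. The E2F letters had the opposite pattern, with 1 of 21 mitosis genes (4.76%), 5 of 12 S phase genes (41.7%) and 4.32% of tested genes. Mcm3 held 2 E2F matches and Mcm6 held 3, of which a pair overlaps, while the windows of Mcm2 and Cdc45 held CHR letters and no E2F match. Neither of the windows of E2f1 and Mybl2 held any of the 3 motifs. The E2f1 window (chr2:154569377-154569676, minus strand) lies wholly within the gene, downstream of its outermost annotated start. Its lack of matches therefore does not describe the promoter at that start. Over all 32851 RefSeq windows of this length the shares were 19.2% for CHR, 37.4% for CCAAT and 2.26% for E2F letters. These are matches of letters, not sites shown to be bound.

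**Figure D1:**
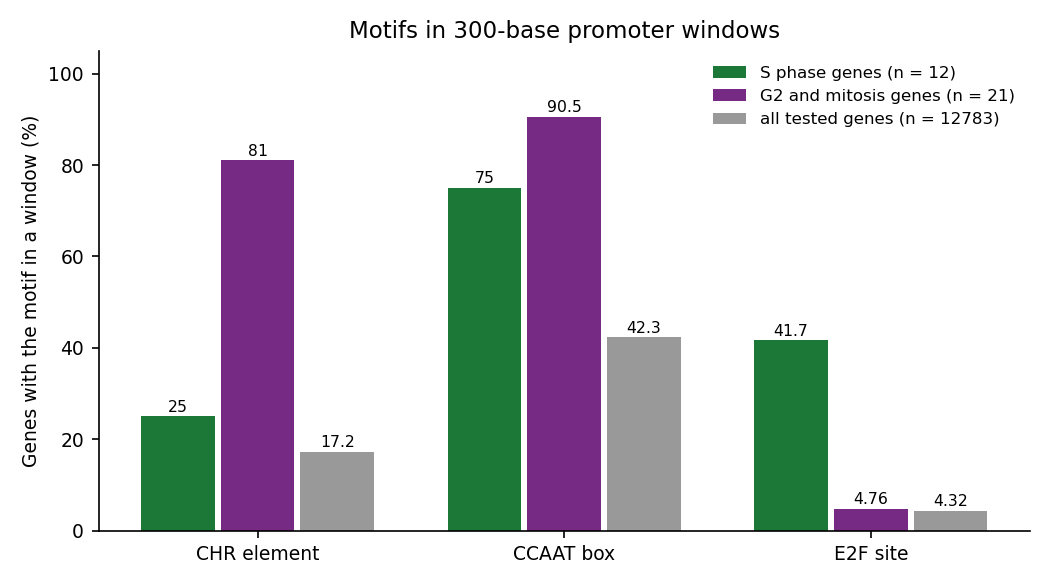
Share of genes (percent, vertical axis) whose 300-base promoter windows hold CHR letters, CCAAT or E2F letters, among S phase genes (12 with a window), G2 and mitosis genes (21) and all tested genes (12783). CHR letters stood in 81.0% of the mitosis genes and 25% of the S phase genes, and E2F letters in 4.76% and 41.7%.

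The libraries held 47185990 to 73167755 counts (median 63334598), and a single one of the 42 genes had 19 to 6513 counts in a library. Levels are given as CPM, counts scaled to library size with TMM factors. Seminal vesicle genes took 8.76%, 10.4% and 2.01% of the counts in WT-NCD 1, 2 and 3 and at most 0.00168% in the other libraries. Gja1 itself had 67.2, 96.8 and 65.7 CPM in KO-HFD, against 68.8, 65.8 and 68.1 CPM in WT-HFD, and 48.9, 149.8 and 67.1 CPM in KO-NCD, against 73.8, 76.8 and 83.6 CPM in WT-NCD, so its level in the whole tissue did not separate the genotypes (KO-HFD against WT-HFD, log2 fold change 0.18, adjusted p = 0.741). The macrophage markers were present in every library, with none of 17 at 0 counts, and 8 of 10 adipocyte markers, Adipoq among them (log2 fold change -0.71, SE 0.23, adjusted p = 0.0345), fell in WT-HFD against WT-NCD. A pair of libraries stood apart in the genes described here. WT-HFD 1 was the highest of all 12 libraries for 39 of the 42, and KO-HFD 3 was the highest of the KO-HFD libraries for 38 of the 42. For the 42, calls and most medians are also given without WT-HFD 1 or KO-HFD 3 where the comparison holds them. Most counts of signs and of values without overlap, and the values of the other gene lists, are given with all libraries alone.

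In WT mice, most cell cycle genes were higher on HFD. Of the 42, 31 rose in WT-HFD against WT-NCD, 1 fell (Cdc45) and 10 were not called, at an adjusted p under 0.05 in edgeR's quasi-likelihood test over all 16352 genes. The background in this comparison was 17.6% of all tested genes called higher and 18.4% called lower, and the median change of all genes was -0.00021 on the log2 scale. The G2 and mitosis genes moved most, with 19 of 25 higher and a median log2 fold change of 1.73, the S phase genes less, with 9 of 14 higher and a median of 0.85, and all 3 transcription factors rose, with a median of 1.31. The estimate was above 0 for 41 of 42, against 49.8% of all genes. The lowest WT-HFD value exceeded the highest WT-NCD value for 36 of the 42 (10 S phase genes, 23 mitosis genes and 3 factors), against 23.5% of all genes, and the reverse held for 1, against 24.6%. In whole tissue, fewer cells of a type and less RNA per cell cannot be told apart.

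**Figure D2:**
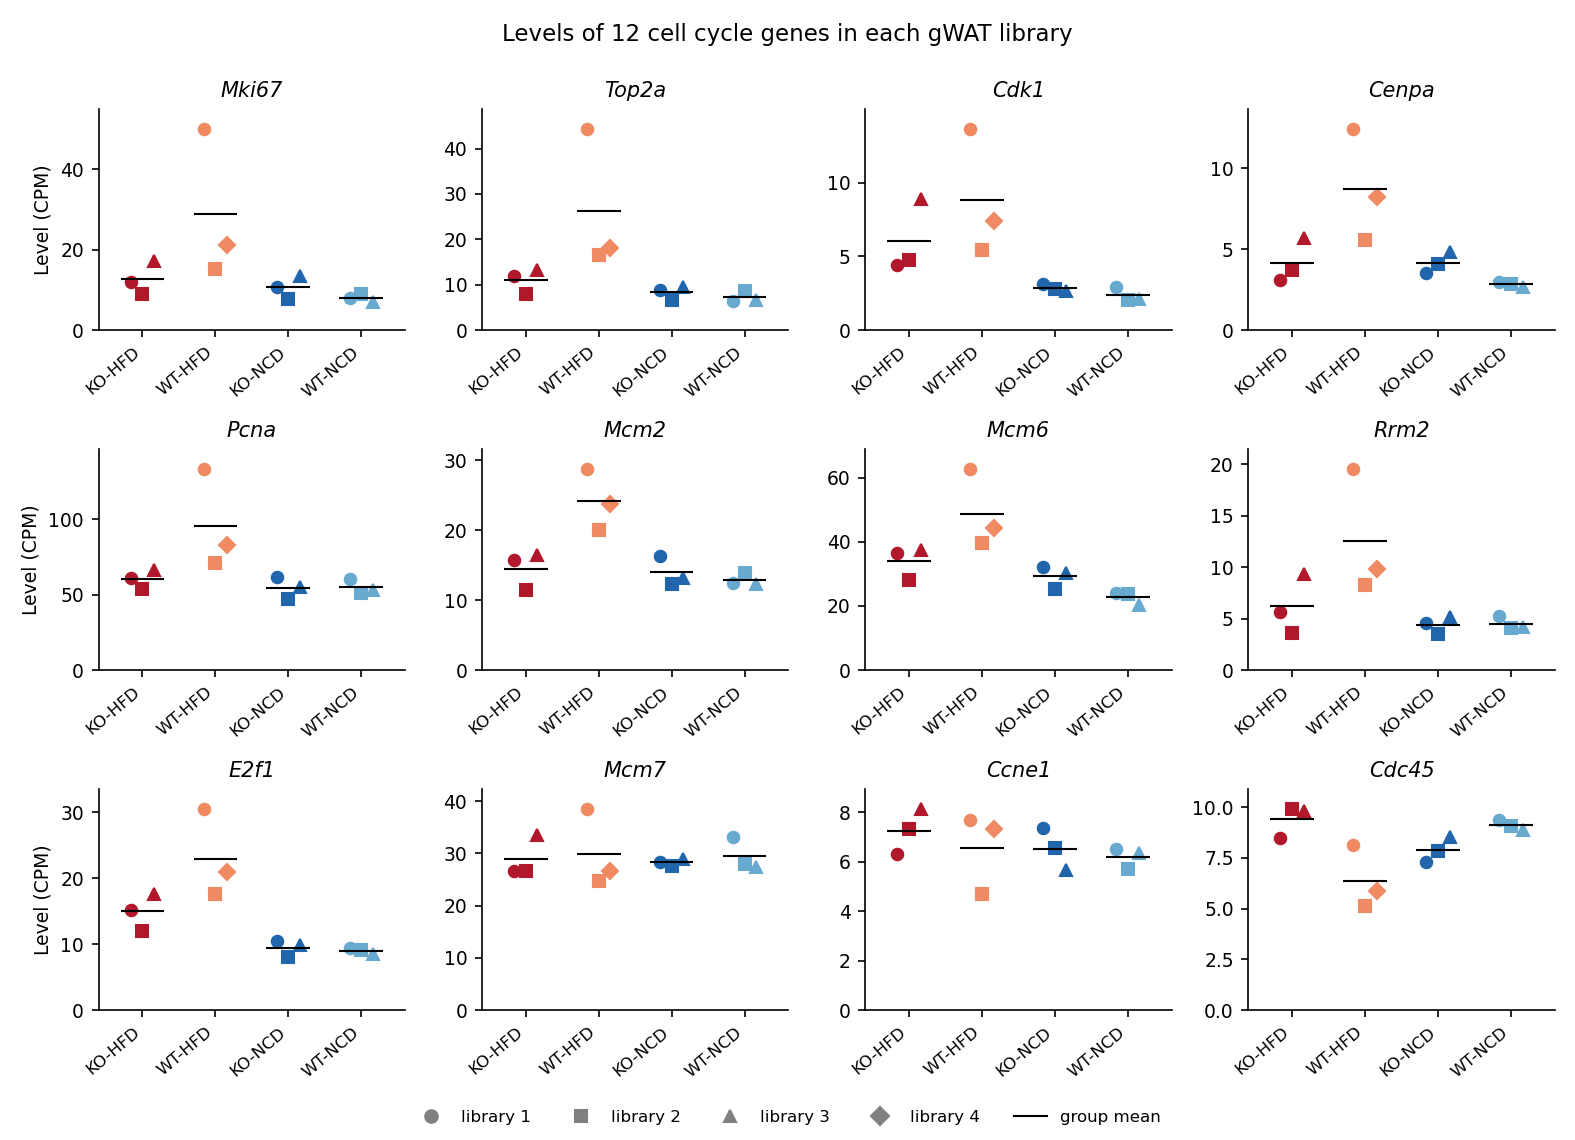
Level (CPM, vertical axis, each panel with its own scale from 0) of 12 of the genes in every library of KO-HFD, WT-HFD, KO-NCD and WT-NCD, with a marker shape for the library number and a line for the group mean. Mki67, Top2a and Cdk1 were highest in WT-HFD 1, Mcm7 and Ccne1 overlapped between groups, and Cdc45 had its lowest group mean in WT-HFD.

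Among the helicase and origin genes, 6 of 8 rose and 1 fell, with a median log2 fold change of 0.91. Mcm2 had 28.7, 20.1 and 23.8 CPM in WT-HFD, against 12.5, 13.9 and 12.4 CPM in WT-NCD (log2 fold change 0.90, SE 0.18, adjusted p = 0.00287). Mcm3 had 39.3, 26 and 36.6 CPM in WT-HFD, against 18, 16.3 and 14.3 CPM in WT-NCD (log2 fold change 1.07, SE 0.22, adjusted p = 0.00365). Mcm4 had 33.9, 29.2 and 36.3 CPM in WT-HFD, against 17.8, 19.2 and 21.0 CPM in WT-NCD (log2 fold change 0.78, SE 0.12, adjusted p = 0.00097). In each of these 3 subunits the lowest WT-HFD library was above the highest WT-NCD library. Mcm5 had 30.8, 18.5 and 19.7 CPM in WT-HFD, against 12.8, 12.4 and 11.1 CPM in WT-NCD (log2 fold change 0.93, SE 0.25, adjusted p = 0.0162). Mcm6 had 62.7, 39.5 and 44.3 CPM in WT-HFD, against 24.1, 23.8 and 20.4 CPM in WT-NCD (log2 fold change 1.1, SE 0.18, adjusted p = 0.00115). Cdc6, the loading factor that brings the helicase to origins, rose by 1.15 (SE 0.26, adjusted p = 0.00621). The last subunit of the same complex behaved differently. Mcm7 had 38.5, 24.7 and 26.6 CPM in WT-HFD, against 33.2, 28 and 27.4 CPM in WT-NCD, and these ranges overlapped (log2 fold change 0.020, SE 0.16, adjusted p = 0.94). Cdc45 had 8.15, 5.12 and 5.88 CPM in WT-HFD, against 9.39, 9.10 and 8.91 CPM in WT-NCD (log2 fold change -0.52, SE 0.17, adjusted p = 0.0385), so the factor that joins the helicase at firing was lower in all WT-HFD libraries, although its call was lost under 9 of 20 alternatives, with adjusted p-values of 0.00438 to 0.252. Both Mcm7 and Cdc45 share exon sequence with genes on the other strand, 7.25% of the Mcm7 exon length with Ap4m1 and 5.96% of that of Cdc45 with Ufd1, and reads there cannot be assigned because the strand setting of the counting is not given in the sources used here.

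Of the nucleotide and clamp genes, 3 of 4 rose. Pcna had 133, 70.8 and 83 CPM in WT-HFD, against 60.4, 51.0 and 53.1 CPM in WT-NCD (log2 fold change 0.80, SE 0.21, adjusted p = 0.0126). Pcna (Entrez Gene 18538, GRCm38.p6 chr2:132249286-132253180) was the most abundant of the 42 per kilobase of exon in all 4 groups. Rrm2 had 19.5, 8.27 and 9.77 CPM in WT-HFD, against 5.26, 4.04 and 4.16 CPM in WT-NCD (log2 fold change 1.48, SE 0.39, adjusted p = 0.0132). The regulated subunit Rrm2 thus changed more than its partner Rrm1, which rose by 0.89 (SE 0.20, adjusted p = 0.00545), although the difference between the subunits was not tested. Tyms, which makes thymidylate, had WT-HFD libraries above every WT-NCD library and a change of 0.46 that was not called (SE 0.20, adjusted p = 0.105).

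The cyclins differed in their calls. Ccne1 had 7.66, 4.67 and 7.31 CPM in WT-HFD, against 6.52, 5.72 and 6.35 CPM in WT-NCD (log2 fold change 0.078, SE 0.20, adjusted p = 0.797). Ccne2 had 8.85, 5.00 and 5.27 CPM in WT-HFD, against 5.37, 4.57 and 6.29 CPM in WT-NCD (log2 fold change 0.24, SE 0.28, adjusted p = 0.556). Both cyclins of the G1 to S transition therefore overlapped between the diets, and 17.4% of the Ccne2 exon length is shared with Ints8 on the other strand. Ccna2 had 20.3, 6.39 and 7.39 CPM in WT-HFD, against 3.36, 2.72 and 3.48 CPM in WT-NCD (log2 fold change 1.83, SE 0.46, adjusted p = 0.0105). Ccnb1 had 9.22, 2.36 and 2.94 CPM in WT-HFD, against 0.949, 1.37 and 1.71 CPM in WT-NCD (log2 fold change 1.85, SE 0.54, adjusted p = 0.0215). Cyclin A2 acts in S phase and G2, and cyclin B1 activates Cdk1 at the entry to mitosis. Cdk1 had 13.6, 5.42 and 7.42 CPM in WT-HFD, against 2.93, 2.04 and 2.08 CPM in WT-NCD (log2 fold change 1.91, SE 0.37, adjusted p = 0.00293). Ccnb2, the other mitotic B cyclin, had a change of 1.73 with an SE of 0.62 and was not called (adjusted p = 0.0511). In all, 3 of the 6 cyclin and Cdk1 genes rose.

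The 2 genes most used to mark dividing cells both rose. Mki67 had 49.9, 15.3 and 21.1 CPM in WT-HFD, against 7.88, 8.98 and 6.97 CPM in WT-NCD (log2 fold change 1.85, SE 0.42, adjusted p = 0.00597). Top2a had 44.3, 16.5 and 18 CPM in WT-HFD, against 6.30, 8.62 and 6.63 CPM in WT-NCD (log2 fold change 1.87, SE 0.37, adjusted p = 0.00291). Mki67 (Entrez Gene 17345, GRCm38.p6 chr7:135689784-135716450) encodes the Ki-67 protein that coats mitotic chromosomes, and Top2a the topoisomerase that untangles them. WT-HFD 1 had more than the sum of the other WT-HFD libraries for both genes. All 3 centromere genes rose, among them the centromeric histone Cenpa. Cenpa had 12.4, 5.55 and 8.24 CPM in WT-HFD, against 2.95, 2.84 and 2.67 CPM in WT-NCD (log2 fold change 1.63, SE 0.31, adjusted p = 0.00259). Of the spindle and cytokinesis genes, 4 of 6 rose, namely the kinesins Kif11 and Kif20a, the spindle factor Tpx2 and the midzone protein Prc1, while Kif23 and Nusap1 were not called. Kif11 had 16.9, 5.30 and 6.85 CPM in WT-HFD, against 2.67, 3.25 and 2.08 CPM in WT-NCD (log2 fold change 1.86, SE 0.42, adjusted p = 0.00624). The chromosomal passenger complex, which corrects chromosome attachment, rose in all 3 of its members among the 42 (Aurkb 1.72, Birc5 1.86, Cdca8 1.36). Of the kinase and checkpoint genes, Bub1, Bub1b and Plk1 rose, with Bub1 at 2.41 the largest fitted change of the 42, and Aurka did not pass the test (0.36, adjusted p = 0.414). Of the ubiquitin ligase genes, Cdc20 rose by 1.72 (adjusted p = 0.00746), and Ube2c and Cdca3 were not called (adjusted p = 0.0697 and 0.0554).

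Genes that rose overlap others too. Exon sequence is shared with a gene on the other strand for 29.3% of Kif20a (Cdc23), 12.5% of Ccna2 (Exosc9) and 11.1% of Prc1 (Rccd1), for 2.84% to 7.09% of Cdc20, Cdca8 and Plk1, and among genes not called for 22.8% of Ube2c (Tnnc2) and 4.24% of Nusap1. Reads in these stretches cannot be assigned either.

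The transcription factors rose together. E2f1 had 30.5, 17.6 and 20.9 CPM in WT-HFD, against 9.45, 9.07 and 8.53 CPM in WT-NCD (log2 fold change 1.35, SE 0.21, adjusted p = 0.000827). E2f1 (Entrez Gene 13555, GRCm38.p6 chr2:154559400-154569892), an activator of the S phase genes, had the smallest p-value of the 42. Foxm1 had 11.1, 4.89 and 6.36 CPM in WT-HFD, against 2.61, 3.51 and 2.86 CPM in WT-NCD (log2 fold change 1.31, SE 0.28, adjusted p = 0.00453). Mybl2 had 4.68, 2.84 and 3.39 CPM in WT-HFD, against 1.66, 1.38 and 1.5 CPM in WT-NCD (log2 fold change 1.26, SE 0.29, adjusted p = 0.0063). For both factors of the mitotic genes the lowest WT-HFD library was above the highest WT-NCD library.

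**Figure D3:**
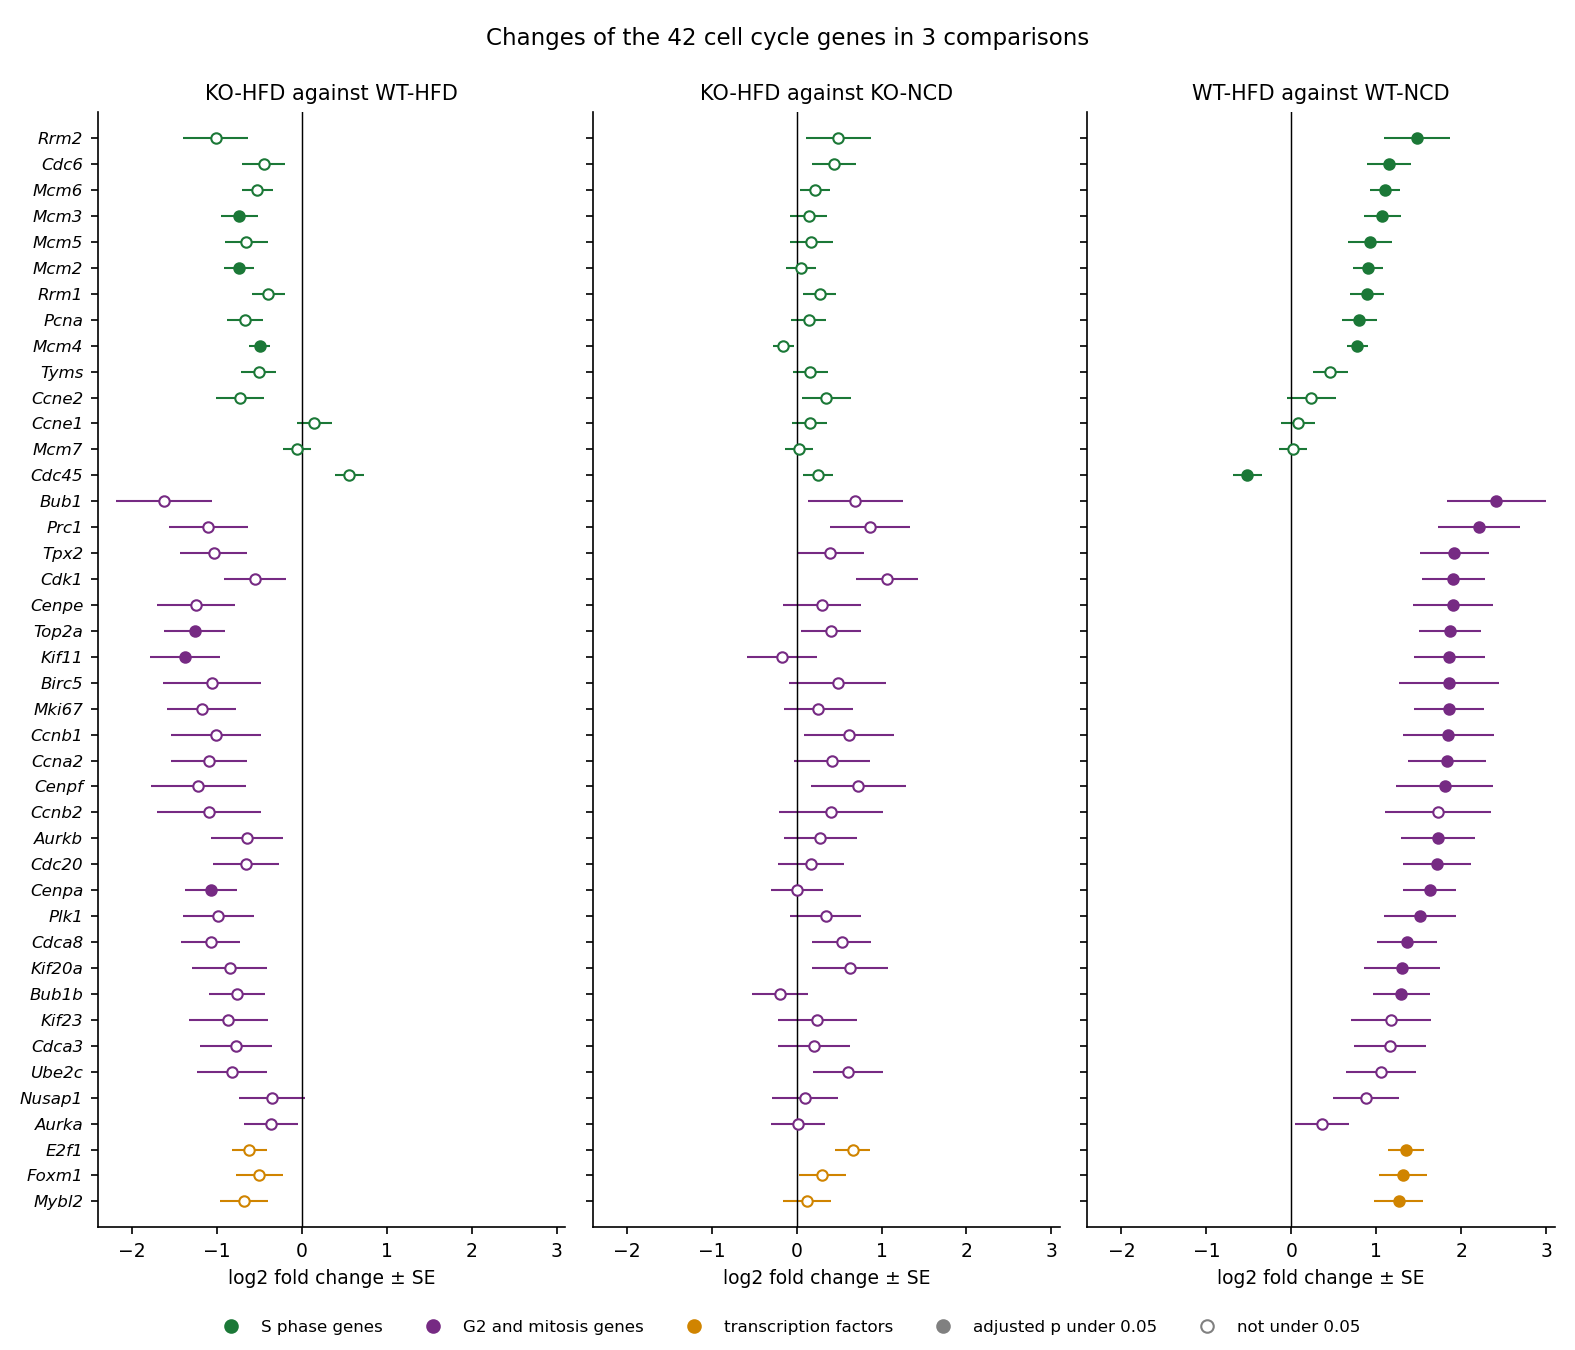
Log2 fold change with its standard error (horizontal axis) of each of the 42 genes (rows, grouped by phase) in KO-HFD against WT-HFD, KO-HFD against KO-NCD and WT-HFD against WT-NCD. Filled points have an adjusted p under 0.05. They number 6, 0 and 32 in these 3 comparisons.

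The size of the WT response depended on 1 library. WT-HFD 1 exceeded the mean of WT-HFD 2 and 4 by a median of 0.48 (log2 CPM) over the S phase genes and of 1.49 over the mitosis genes (0.87 to 2.11), against 0.027 over all tested genes. Without WT-HFD 1, 25 of the 42 were called in WT-HFD against WT-NCD (15.8% of all genes called higher and 16.6% lower in that fit), the median of the mitosis genes was 1.09 in place of 1.73, and that of the S phase genes 0.71 in place of 0.85. The 7 genes that lost their call were Mcm5, Rrm2, Ccnb1, Cenpf, Birc5, Plk1 and Kif20a. The change of Mki67 was 1.19 and that of Top2a 1.26 in that fit, both still called, and that of Ccnb1 0.98. Leaving out WT-NCD 1 and 2, the libraries with the largest share of seminal vesicle counts, leaves WT-NCD with 1 library, which is assumed to vary like the other groups. The medians were then 1.71 for mitosis and 0.91 for S phase genes, and 4 of the 42 were called (6.15% of all genes higher and 8.34% lower). WT-HFD 2 and 4 were both above every WT-NCD value for 36 of the 42. The share of all genes was not computed for this count, so it has no background here. That share cannot be lower than the 23.5% given above, which requires WT-HFD 1 to be above WT-NCD too. Within the KO-HFD group, KO-HFD 3 exceeded the mean of KO-HFD 1 and 2 by a median of 0.73 over the mitosis genes and 0.29 over the S phase genes. Markers of other cells differed in these libraries too, and their part in the result was not tested. WT-HFD 1 was the highest of 12 libraries for 10 of 17 macrophage markers and for 6 of 9 spermatogenic markers in the table (summed level 58.2 CPM, against 12.7 and 23.8 CPM in WT-HFD 2 and 4), whereas its summed neutrophil markers were the lowest of the group at 24.4 CPM. KO-HFD 3 was the highest of 12 for 6 of 6 B and plasma cell markers and for 6 of 9 T and NK cell markers.

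**Figure D4:**
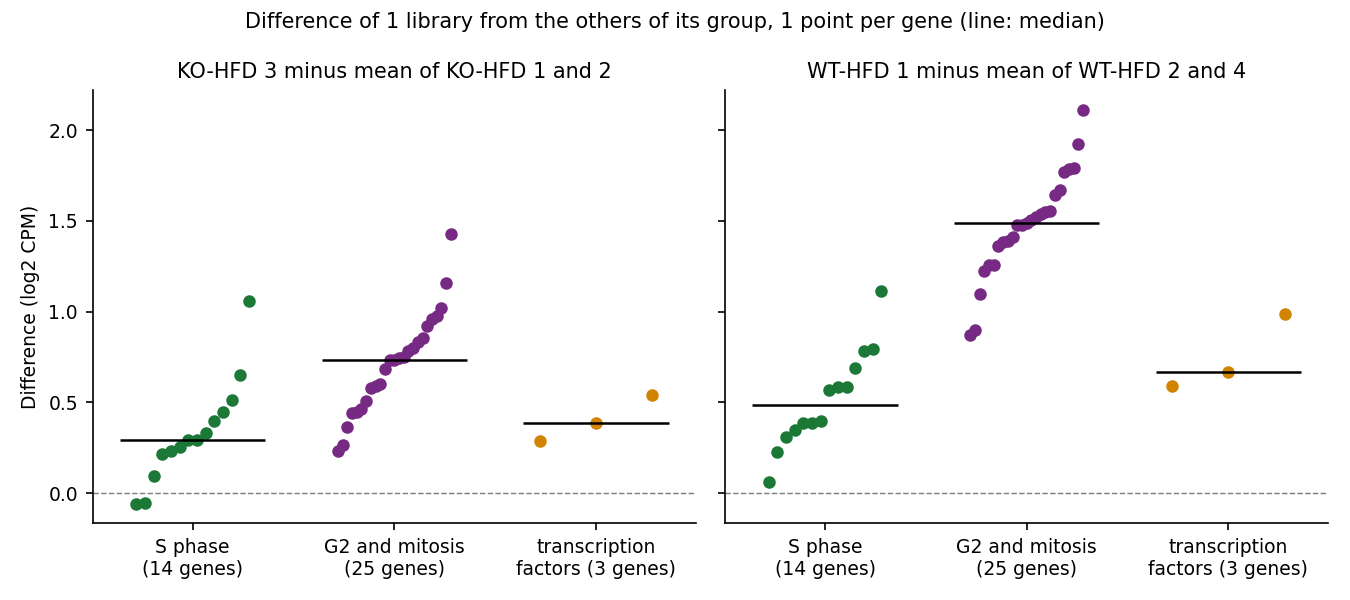
Difference in log2 CPM (vertical axis) of KO-HFD 3 from the mean of KO-HFD 1 and 2 and of WT-HFD 1 from the mean of WT-HFD 2 and 4, with 1 point per gene and a line at the median of each group of genes. The mitosis genes differed most, with medians of 0.73 in KO-HFD 3 and 1.49 in WT-HFD 1.

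In Cx43-MKO mice none of the 42 genes was called in KO-HFD against KO-NCD. This comparison called 5 of all tested genes (0.0306%, with 0.0245% higher and 0.00612% lower), so the background was also near none. DESeq2's Wald test called none of the 42 either, against 1.31% of all genes higher and 0.618% lower. The estimates were positive for 39 of 42 (48.1% of all genes), with medians of 0.17 for S phase genes, 0.39 for mitosis genes and 0.31 for the factors, and 2 genes, E2f1 and Cdk1, were higher at an unadjusted p under 0.05 and none lower, against 4.82% and 4.54% of all genes. Cdk1 had 4.42, 4.73 and 8.91 CPM in KO-HFD, against 3.13, 2.81 and 2.68 CPM in KO-NCD (log2 fold change 1.07, SE 0.37, adjusted p = 0.386). E2f1 had 15.2, 12.0 and 17.7 CPM in KO-HFD, against 10.4, 8.12 and 9.91 CPM in KO-NCD (log2 fold change 0.66, SE 0.21, adjusted p = 0.349). These are 2 of the 5 genes, with Kif20a, Ube2c and Foxm1, whose KO-HFD values were all above their KO-NCD values, against 8.52% of all genes, and no gene had them all below (8.95%). Mki67 had 11.9, 9 and 17.2 CPM in KO-HFD, against 10.8, 7.61 and 13.5 CPM in KO-NCD (log2 fold change 0.26, SE 0.40, adjusted p = 0.891). Pcna had 60.8, 53.7 and 66.4 CPM in KO-HFD, against 61.9, 47.1 and 54.8 CPM in KO-NCD (log2 fold change 0.14, SE 0.21, adjusted p = 0.876). Rrm2 had 5.65, 3.57 and 9.37 CPM in KO-HFD, against 4.61, 3.49 and 5.12 CPM in KO-NCD (log2 fold change 0.49, SE 0.38, adjusted p = 0.75). These proliferation genes overlapped between the diets in KO mice. Ccna2 had 4.61, 3.62 and 7.78 CPM in KO-HFD, against 4.02, 2.73 and 5.23 CPM in KO-NCD (log2 fold change 0.42, SE 0.45, adjusted p = 0.825). Ccnb1 had 2.15, 1.66 and 3.39 CPM in KO-HFD, against 1.19, 1.24 and 2.26 CPM in KO-NCD (log2 fold change 0.62, SE 0.53, adjusted p = 0.772). Without KO-HFD 3, the median of the mitosis genes was -0.026 in place of 0.39, and that of the S phase genes 0.067 in place of 0.17.

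On HFD, 6 of the 42 genes were lower in KO-HFD against WT-HFD and none higher, against 7.72% of all tested genes called lower and 7.99% called higher. The estimates were negative for 40 of 42 (51.7% of all genes had a positive one), with medians of -0.51 for S phase genes, -1.04 for mitosis genes and -0.62 for the factors, beside 0.019 for all genes. The genes that fell were the helicase subunits Mcm2, Mcm3 and Mcm4 and, of the mitosis genes, Top2a, Cenpa and Kif11. Mcm2 had 15.7, 11.4 and 16.4 CPM in KO-HFD, against 28.7, 20.1 and 23.8 CPM in WT-HFD (log2 fold change -0.74, SE 0.18, adjusted p = 0.0205). Mcm3 had 21.1, 15.4 and 24.6 CPM in KO-HFD, against 39.3, 26 and 36.6 CPM in WT-HFD (log2 fold change -0.74, SE 0.22, adjusted p = 0.0439). Mcm4 had 26.6, 21.2 and 22.8 CPM in KO-HFD, against 33.9, 29.2 and 36.3 CPM in WT-HFD (log2 fold change -0.49, SE 0.12, adjusted p = 0.0251). In all 3 the highest KO-HFD library was below the lowest WT-HFD library. Top2a had 11.9, 7.85 and 13.1 CPM in KO-HFD, against 44.3, 16.5 and 18 CPM in WT-HFD (log2 fold change -1.26, SE 0.36, adjusted p = 0.0392). Cenpa had 3.1, 3.74 and 5.68 CPM in KO-HFD, against 12.4, 5.55 and 8.24 CPM in WT-HFD (log2 fold change -1.07, SE 0.31, adjusted p = 0.0408), and here KO-HFD 3 was above WT-HFD 2. Kif11 had 3.92, 2.55 and 4.74 CPM in KO-HFD, against 16.9, 5.30 and 6.85 CPM in WT-HFD (log2 fold change -1.37, SE 0.41, adjusted p = 0.0473), with KO-HFD wholly below WT-HFD. Over all 42 genes, KO-HFD lay wholly below WT-HFD for 11 (17% of all genes) and wholly above it for 1, Cdc45 (19.3%).

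Cdc45 had 8.49, 9.91 and 9.81 CPM in KO-HFD, against 8.15, 5.12 and 5.88 CPM in WT-HFD, and its difference missed the threshold (log2 fold change 0.56, SE 0.17, adjusted p = 0.0519). Mki67 had 11.9, 9 and 17.2 CPM in KO-HFD, against 49.9, 15.3 and 21.1 CPM in WT-HFD, with 1 KO-HFD library inside the WT-HFD range (log2 fold change -1.18, SE 0.41, adjusted p = 0.0736). Pcna (-0.67, adjusted p = 0.0536), Rrm2 (-1.01, adjusted p = 0.0959), Ccna2 (-1.09, adjusted p = 0.119), Ccnb1 (-1.01, adjusted p = 0.206) and Cdk1 (-0.55, adjusted p = 0.312) were not called. Apart from that of Cdc45, these estimates were negative. The same held for Mcm5 (-0.65, adjusted p = 0.102), Mcm6 (-0.52, adjusted p = 0.0728), E2f1 (-0.62, adjusted p = 0.0658), Foxm1 (-0.50, adjusted p = 0.228) and Mybl2 (-0.68, adjusted p = 0.119). Ccne1 (0.15, adjusted p = 0.649) and Ccne2 (-0.73, adjusted p = 0.106) were not called and had opposite signs. The 6 calls depended on single libraries and on the test. Of these 6, none was called without KO-HFD 2 (5.64% of all genes) or in a fit of the 2 groups alone (8.47%). Only Top2a was called without WT-HFD 4 (5.89% of all genes). Only Mcm2 and Mcm4 of the 6 were called without KO-HFD 1 (10.7%), WT-HFD 1 (16.6%), KO-NCD 3 (11.3%) or WT-NCD 3 (12.8%). Mcm2, Mcm3 and Cenpa were called without KO-HFD 3, and Mcm2, Mcm4 and Top2a without WT-NCD 1 (14.4% of all genes) or WT-NCD 2 (13.6%). All 6 were called without WT-HFD 2, where 12 of the 42 were, against 4.86% of all genes called higher and 5.93% lower. All 6 were also called by DESeq2's Wald test, which called 16 of the 42, against 13.1% of all genes higher and 11.9% lower. Cdc45 was called higher by the Wald test and without WT-HFD 1. Without WT-HFD 1 the medians were -0.37 for S phase and -0.32 for mitosis genes, and without KO-HFD 3, where 4 of the 42 were called (9.14% of all genes), -0.66 and -1.35. Markers of other cells differed in this comparison too. Of 10 adipocyte markers 6 were higher (median 0.83), with a summed level of 25530.0 to 29210.0 CPM in KO-HFD, against 15250.0 to 20080.0 CPM in WT-HFD. Of 9 tested T and NK cell markers 3 were higher (median 1.12), with 37.5 to 77.4 CPM in KO-HFD, against 21.3 to 30.6 CPM in WT-HFD. Of 10 liver markers 2 were called higher and all 10 had every KO-HFD value above WT-HFD, with summed levels of 302, 1817 and 428 CPM in KO-HFD, against 67, 8.69 and 6.98 CPM in WT-HFD. KO-HFD 2, without which none of the 6 was called, thus had the most liver transcripts, and the part of these cells in the result was not tested.

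On chow, Mcm4 was the only one of the 42 called in KO-NCD against WT-NCD, and it was higher, against 5.27% of all genes called higher and 7.91% lower. Mcm4 had 29.2, 25.1 and 24.5 CPM in KO-NCD, against 17.8, 19.2 and 21.0 CPM in WT-NCD (log2 fold change 0.44, SE 0.12, adjusted p = 0.0416). The estimates were positive for 31 of 42, against 55.3% of all genes. The call was lost under 11 of 20 alternatives, among them leaving out KO-HFD 3 or any 1 of the 6 NCD libraries, each with 0 of the 42 called, while 3 were called without WT-HFD 1 (14.3% of all genes). Mki67 (0.42, adjusted p = 0.508), Pcna (-0.0067, adjusted p = 0.986), E2f1 (0.070, adjusted p = 0.843) and Ccne2 (-0.84, adjusted p = 0.0746) were not called. KO-NCD lay wholly above WT-NCD for 10 of the 42 (18% of all genes) and wholly below it for 3 (19.2%).

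The response to HFD itself was lower in KO than in WT mice for 5 of the 42, tested as the diet by genotype interaction, against 8.57% of all genes with a lower and 9.12% with a higher response. For Mcm2 the change was 0.056 in KO and 0.90 in WT mice (difference -0.85, SE 0.25, adjusted p = 0.0397). For Mcm4 it was -0.16 in KO and 0.78 in WT mice (difference -0.93, SE 0.18, adjusted p = 0.0071), and for Mcm6 0.22 and 1.1 (difference -0.89, SE 0.25, adjusted p = 0.0366). In these 3 subunits of the helicase the change was thus smaller in KO mice. Cenpa changed by 0.0098 in KO and 1.63 in WT mice (difference -1.62, SE 0.43, adjusted p = 0.0283), and Kif11 by -0.17 and 1.86 (difference -2.03, SE 0.58, adjusted p = 0.0364). For Mki67 the difference was -1.60 (SE 0.57, adjusted p = 0.0791) and for Top2a -1.47 (SE 0.51, adjusted p = 0.0702), neither of them called. The estimates were negative for 38 of 42, while 50.4% of all genes had a positive one. The comparisons share libraries, since WT-HFD enters the WT diet response, the genotype difference on HFD and the interaction, and they are no independent evidence of each other. Mcm4 kept its call under 19 of 20 alternatives and the other 4 under 7 to 11. With the replicate number as a block, which pairs the KO-HFD and KO-NCD libraries, Mcm4 and Mcm6 were called and Mcm2, Cenpa and Kif11 were not. That block also fits WT-HFD 4, the only library with its number, on its own, so WT-HFD rests there on WT-HFD 1 and 2. Of the 5, Mcm4 alone was called without KO-HFD 1, KO-HFD 2, KO-NCD 3, WT-NCD 1 or WT-NCD 3, where 11.2% to 13.6% of all genes were called. Without WT-HFD 4, KO-NCD 1 or WT-NCD 2, 2 were called, and 3 without WT-HFD 1. All 5 were called without KO-HFD 3, KO-NCD 2 or WT-HFD 2, the last with 11 of the 42 called (14% of all genes). Over all fits with 1 library left out, the share of all genes was 10.4% (without KO-NCD 1) to 18.2% (without WT-HFD 1). None was called without both WT-NCD 1 and 2, where WT-NCD is 1 library.

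S phase and mitosis genes were next compared within each library, as the mean log2 CPM of the 14 S phase genes minus that of the 25 mitosis genes. The difference was 2.18, 1.99 and 1.71 in KO-HFD, 0.945, 1.95 and 1.86 in WT-HFD, 2.41, 2.20 and 1.80 in KO-NCD, beside 2.41, 2.29 and 2.39 in WT-NCD. S phase genes thus had the higher mean level in every library, by least in WT-HFD 1, and every WT-HFD value was under the WT-NCD values. The group mean was 1.96 ± 0.24 for KO-HFD, 1.59 ± 0.56 for WT-HFD, 2.14 ± 0.31 for KO-NCD and 2.36 ± 0.07 for WT-NCD (SD, n = 3 each), and without WT-HFD 1 the mean of WT-HFD was 1.91. The S phase mean was 3.78 ± 0.26 for KO-HFD, 4.22 ± 0.32 for WT-HFD, 3.6 ± 0.15 for KO-NCD and 3.57 ± 0.07 for WT-NCD, and the mitosis mean was 1.82 ± 0.42, 2.63 ± 0.87, 1.46 ± 0.28 and 1.21 ± 0.06 in the same order of groups. The spread in WT-HFD was therefore wider for mitosis than for S phase genes. Per kilobase of exon, the median level of the mitosis genes was 1.06 CPM for KO-HFD, 1.79 CPM for WT-HFD, 0.760 CPM for KO-NCD and 0.589 CPM for WT-NCD, against 3.03, 4.44, 2.60 and 2.48 CPM for the S phase genes. No test was run on these scores, because their members were chosen with results of these data known.

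**Figure D5:**
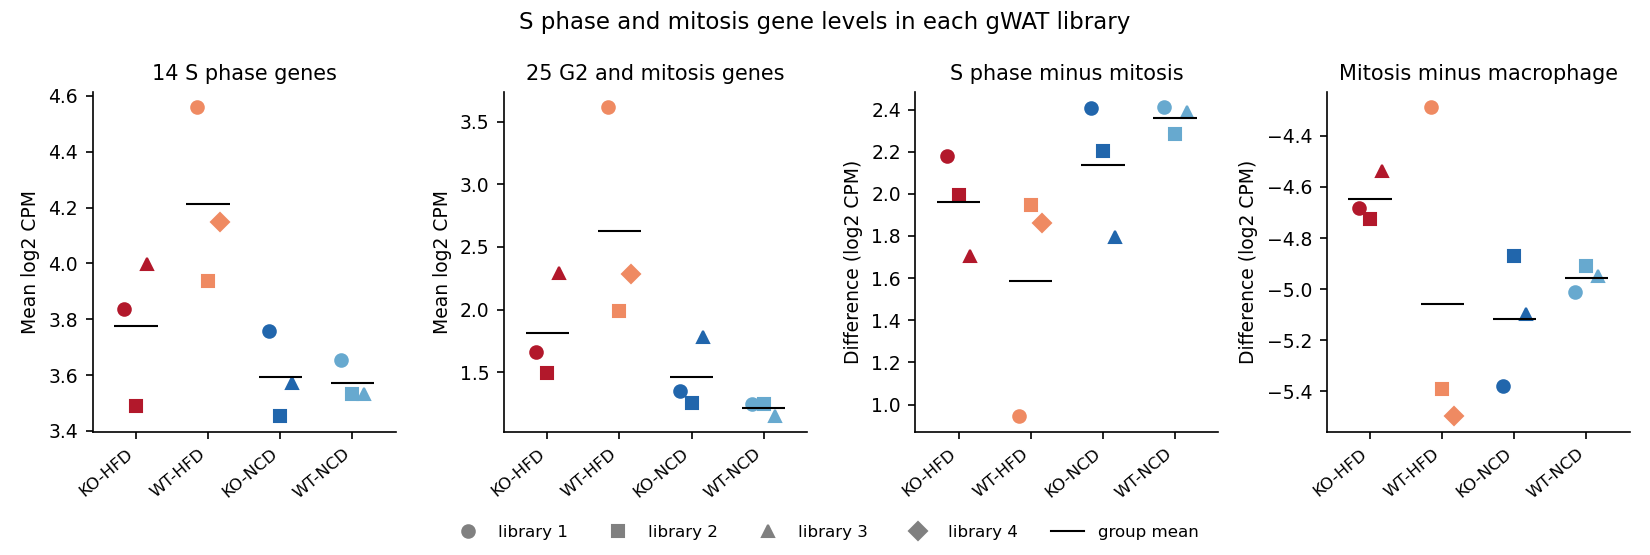
Mean log2 CPM of the S phase and of the G2 and mitosis genes, their difference, and the mitosis mean minus the mean of the macrophage markers (vertical axes, 1 panel each), with 1 marker per library and a line for the mean of each group. The difference of S phase from mitosis genes was smallest in WT-HFD 1, at 0.945.

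Macrophage markers moved with the cell cycle genes. Of 17 markers, 12 rose and 1 fell in WT-HFD against WT-NCD (median 1.77), 11 were lower in KO-HFD against WT-HFD (median -1.35), none was called in KO-HFD against KO-NCD, and none was at 0 counts in any library. The summed level of all 17 was 9627 to 14030.0 CPM in KO-HFD, 6607 to 14250.0 CPM in WT-HFD, 8724 to 14150.0 CPM in KO-NCD, beside 16940.0 to 19360.0 CPM in WT-NCD, with Lpl included, which adipocytes also make. Without Lpl it was 1427 to 2805 CPM in KO-HFD, 3628 to 5892 CPM in WT-HFD, 1533 to 2682 CPM in KO-NCD, beside 1325 to 1471 CPM in WT-NCD. Adgre1, which encodes the macrophage marker F4/80, had 93.7, 60.0 and 98.2 CPM in KO-HFD, 493, 244 and 272 CPM in WT-HFD, 125, 69.9 and 94.1 CPM in KO-NCD and 52.7, 63.0 and 42 CPM in WT-NCD. Mki67 per 100 CPM of Adgre1 was 12.7, 15 and 17.6 in KO-HFD, 10.1, 6.25 and 7.77 in WT-HFD, 8.65, 10.9 and 14.4 in KO-NCD, beside 15, 14.3 and 16.6 in WT-NCD, so relative to this marker Mki67 was lowest in WT-HFD 2 and 4. The mean of the mitosis genes minus that of the macrophage markers was -4.65 ± 0.10 for KO-HFD, -5.06 ± 0.67 for WT-HFD, -5.12 ± 0.26 for KO-NCD and -4.96 ± 0.05 for WT-NCD (log2, SD, n = 3 each). Neutrophil markers moved as well, with 6 of 7 tested higher in WT-HFD against WT-NCD, 5 lower in KO-HFD against WT-HFD, and a summed level of 14.3 to 19.6 CPM in KO-HFD, 24.4 to 499 CPM in WT-HFD, 10.2 to 48.1 CPM in KO-NCD, beside 7.87 to 12.4 CPM in WT-NCD. Ly6g, a surface marker of neutrophils, was at 0 counts in every KO-HFD and WT-NCD library, in WT-HFD 1 and in KO-NCD 2 and 3. Progenitor and fibroblast markers rose in 4 of 10 and endothelial markers in 2 of 8 in WT-HFD against WT-NCD. Over all genes, 17.6% were called higher and 18.4% lower in WT-HFD against WT-NCD, 7.72% lower in KO-HFD against WT-HFD and 0.0306% in KO-HFD against KO-NCD. Which cells held the cell cycle transcripts, and the part of cell numbers in the result, was not tested.

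Other genes of the same pathways were counted from lists outside the 42. Of 30 other replication genes, 15 rose and 2 fell in WT-HFD against WT-NCD (median 0.49), where 17.6% of all genes were called higher and 18.4% lower. The chromatin assembly subunit Chaf1b (log2 fold change 1.98, SE 0.24, adjusted p = 0.000242) and Uhrf1, which keeps DNA methylation through replication (log2 fold change 1.75, SE 0.26, adjusted p = 0.000703), were among those that rose, with the DNA ligase Lig1 (1.17). Of 42 other mitosis genes, 36 rose and none fell (median 1.82), among them Incenp of the passenger complex (log2 fold change 1.38, SE 0.20, adjusted p = 0.000509), the condensin genes Ncaph (1.51) and Smc2 (1.16) and the centrosome kinase Nek2 (2.03). WT-HFD 1 was the highest of all 12 libraries for 40 of these 42 mitosis genes and for 19 of the 30 replication genes. The calls of these lists were not counted without it. Of 28 genes of G1 cyclins, CDKs and pocket proteins, 7 rose and 1 fell (median 0.13). Those that rose include Cdk6 (log2 fold change 1.80, SE 0.14, adjusted p = 5.64e-05), Skp2, which targets the inhibitor p27 for degradation (1.59), and the E2F repressors E2f7 (1.56) and E2f8 (2.05), while Ccnd1 was not called (0.44, adjusted p = 0.205).

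In KO-HFD against KO-NCD none of these 100 genes was called, in a comparison that called 0.0306% of all genes. In KO-HFD against WT-HFD, where 7.72% of all genes were called lower and 7.99% higher, 3 of the 30 replication genes were lower (among them Cdt1 at -1.09 with an adjusted p of 0.0331 and Clspn at -1.39 with an adjusted p of 0.0372), 4 of the 42 mitosis genes were lower (among them Incenp at -0.84 with an adjusted p of 0.0185 and Smc2 at -0.72 with an adjusted p of 0.0343), and of the 28 G1 genes 4 were lower and 1 higher (Cdk6 at -1.03 with an adjusted p of 0.00264 and Skp2 at -1.07 with an adjusted p of 0.0143 among the lower). The shares of replication and mitosis genes called lower were thus near that of all genes. On chow, no replication or mitosis gene of these lists was called in KO-NCD against WT-NCD (5.27% of all genes higher and 7.91% lower), and Rbl1, a pocket protein (0.70, adjusted p = 0.0139), and Cdk6 (0.62, adjusted p = 0.0222) were higher. In the interaction, 6 replication genes, 4 mitosis genes and 7 G1 genes had a lower response in KO mice, and none a higher one (8.57% and 9.12% of all genes). Chaf1b (-1.56, adjusted p = 0.0118), Incenp (-1.27, adjusted p = 0.0118), Ncaph (-1.41, adjusted p = 0.0183), Cdk6 (-1.65, adjusted p = 0.00282) and Rbl1 (-1.03, adjusted p = 0.00715) were among them.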

How the data were processed

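RNA-seq of gWAT gave 1 deposited table of raw counts per gene, which the authors made from 12 libraries. The submitters' processing notes name bcl2fastq 2.20.0, Trimmomatic, HISAT2 2.1.0, StringTie 1.3.4d and DESeq2 on mm10, and the labels a TruSeq Stranded mRNA kit. The strand setting of the counting and the annotation release are not given in the sources used here. One column of the WT-HFD group carries the number 4, which no sample title does, and is called WT-HFD 4.

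From the deposited counts, genes were kept by filterByExpr (minimum count 10, minimum total 15), scaled by TMM and fitted in edgeR 4.0.16 (R 4.3.3, limma 3.58.1) in a one-way layout of the 4 groups (residual degrees of freedom 8). The quasi-likelihood test was adjusted by Benjamini-Hochberg over all 16352 genes, and a gene was called at an adjusted p under 0.05. The common biological coefficient of variation was 0.339. The SE of a log2 fold change was taken from the F statistic. Mean log2 levels used a prior count of 2. IDs were named from RefSeq on GRCm38.p6 (19745 of 19792 matched). Kilobases of exon and exon overlaps came from an annotation of the same build. The fit was tested on simulated data.

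The 42 genes, the other lists and the tests were chosen with earlier results of these data known. Full values in WT-HFD against WT-NCD were to be given for 14 named genes and the 8 with the smallest p, and in other comparisons also for any gene called. Cdc45, Kif11 and the values quoted for other genes there were chosen after they were seen.

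Alternatives were DESeq2 1.42.0 size factors, DESeq2's Wald test, no filter, the replicate number as a block, no seminal vesicle genes, fits of 2 groups, and leaving out libraries. Same-numbered KO-HFD and KO-NCD libraries deviated together (correlations 0.468, 0.699 and 0.195 for numbers 1, 2 and 3), so by the rule used the numbers were taken as a pairing. Those of unequal numbers were -0.571 to 0.182, the highest for KO-HFD 3 with KO-NCD 1. The sample titles give replicate numbers and no pairing. KO-HFD 2 and KO-NCD 2 also had the most liver transcripts of their groups (1817 and 706 CPM), and the part of these in the correlation was not tested. With the pairing as a block, 0 of the 42 genes were called in KO-HFD against KO-NCD, in the fit of 12 libraries and in the KO libraries alone. No other pair of groups met the rule.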

Additional observations from a re-analysis of the deposited data

Results flagged for a closer look

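The responses to HFD of 5 of the 42 genes differed between genotypes by the interaction term of the edgeR fit. Over all genes, 8.57% had a lower and 9.12% a higher response in KO mice in the same fit. In log2 units, KO response minus WT response, the difference was -0.85 for Mcm2, -0.93 for Mcm4, -0.89 for Mcm6, -1.62 for Cenpa and -2.03 for Kif11. With WT-HFD 1 left out, 4 of the 42 genes were called, 3 of them among these 5, against 9.48% of all genes with a higher and 8.76% with a lower response. The remaining gene was Cdc45, whose response was higher in KO mice. Groups of 3 libraries are too small for a test of single outlying libraries, and every column of the count table was used in the comparisons.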

How the results depend on the processing

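Of the values of single genes under the alternatives, 767 kept their direction and side of the threshold, 148 lost and 14 gained a call, and 11 changed sign. In WT-HFD against WT-NCD (32 called), leaving out 1 library gave 25 to 35, and leaving out WT-NCD 1 and 2 gave 4 (14.5% of all genes called), with 1 library left in WT-NCD and S phase and mitosis medians of 0.91 and 1.71. In KO-HFD against WT-HFD (6 called), leaving out 1 library gave 0 to 12, DESeq2's Wald test 16, the fit of these 2 groups 0, leaving out KO-NCD 2 and KO-HFD 2 0, and leaving out WT-HFD 1 and KO-HFD 3 (chosen after seeing the data) 3. In KO-NCD against WT-NCD (1 called), leaving out 1 library gave 0 to 3, the Wald test 2, and the fit of 2 groups, leaving out WT-NCD 1 and 2 and leaving out KO-NCD 2 and KO-HFD 2 each gave 0. For the interaction (5 called), leaving out 1 library gave 1 to 11, the Wald test 13, leaving out WT-NCD 1 and 2 0, and leaving out KO-NCD 2 and KO-HFD 2 1. KO-HFD against KO-NCD stayed at 0 under every alternative run. Over all genes, the Wald test called 25% in KO-HFD against WT-HFD, 22.8% in KO-NCD against WT-NCD, 25.3% in the interaction and 1.93% in KO-HFD against KO-NCD. With 1 library left out, the share of all genes called moved as well. It was 27.6% to 35% in WT-HFD against WT-NCD and 5.64% to 16.6% in KO-HFD against WT-HFD. In KO-NCD against WT-NCD it was 2.97% to 14.3%, and in the interaction 10.4% to 18.2%.

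By the same rule, replicate numbers were not taken to pair the other groups (correlations of same-numbered libraries -0.0789 and -0.0235 for the WT diets, -0.176 and -0.144 on HFD, -0.0953, 0.262 and 0.0504 on chow). With the replicate block, the counts were 33 in WT-HFD against WT-NCD (31 shared), 0 in KO-HFD against WT-HFD, 0 in KO-NCD against WT-NCD and 2 in the interaction (Mcm4 and Mcm6), and it changed no call in KO-HFD against KO-NCD.

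Sign changes were all of uncalled values near 0. In WT-HFD against WT-NCD, Ccne1 was -0.026 with the block, -0.060 without WT-HFD 1 and KO-HFD 3, and -0.050 to 0.27 with 1 library left out. Ccne2 was -0.084 without that pair and -0.074 to 0.38 with 1 library left out, and Mcm7 -0.21 and -0.20 to 0.14. In KO-HFD against WT-HFD, Ccne1 was -0.047 to 0.28 with 1 library left out. With 3 libraries per group and the rarest of the 42 genes at 19 counts in a library, small changes were not detectable. The causes of these dependences were not tested.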

Other observations

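Genes that slow or permit division were measured beside the cycle genes, from a list of 22 CDK inhibitors and p53 targets. In WT-HFD against WT-NCD, 8 rose and 4 fell (median 0.43), where 17.6% of all genes were called higher and 18.4% lower. The inhibitor Cdkn1a (p21) had 153, 209 and 242 CPM in WT-HFD, against 49.8, 56.3 and 33.7 CPM in WT-NCD (log2 fold change 2.11, SE 0.51, adjusted p = 0.00833). Cdkn2c (p18), an inhibitor of Cdk4 and Cdk6, fell by 2.05 (adjusted p = 0.000337), and the p53 target Phlda3 fell by 1.69 (adjusted p = 0.000184). Gadd45b (1.83) and Mdm2 (0.78) rose, and Cdkn2a was not called (-0.22, adjusted p = 0.785). In KO-HFD against WT-HFD, 3 were higher and 4 lower, with Cdkn2c at 1.27 with an adjusted p of 0.0121 and Mdm2 at -0.73 with an adjusted p of 0.00302, and in KO-HFD against KO-NCD none was called. Of all genes, 7.99% were called higher and 7.72% lower in KO-HFD against WT-HFD, and 0.0306% in KO-HFD against KO-NCD. On chow, 4 were higher and 2 lower in KO-NCD against WT-NCD (Phlda3 -1.38, Sesn1 0.53), and the interaction was higher for 2 and lower for 4 (Phlda3 2.22, Sesn1 -0.88). The shares of all genes were 5.27% higher and 7.91% lower on chow, and 9.12% higher and 8.57% lower in the interaction.

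Of 18 tested macrophage growth factor and brake genes, 14 rose and 1 fell in WT-HFD against WT-NCD (median 1.34), where 17.6% of all genes were called higher and 18.4% lower. Csf1, the main growth factor of macrophages, had 76.8, 160.0 and 150.3 CPM in WT-HFD, against 60.6, 74.6 and 69.5 CPM in WT-NCD (log2 fold change 0.92, SE 0.25, adjusted p = 0.0144), and its receptor gene Csf1r rose by 1.3 (adjusted p = 0.00249). The monocyte attractant Ccl2 rose by 3.19 (adjusted p = 0.00174). In KO-HFD against WT-HFD, 7 were lower, while Csf1 (-0.44, adjusted p = 0.237) and Csf1r (-0.74, adjusted p = 0.0625) were not called, and in KO-HFD against KO-NCD none was called. Of all genes, 7.72% were called lower in KO-HFD against WT-HFD, and 0.0306% were called in KO-HFD against KO-NCD. On chow, Csf1r (0.93, adjusted p = 0.0334) and Il6ra (0.94, adjusted p = 0.0462) were higher in KO-NCD against WT-NCD, where 5.27% of all genes were. In the interaction 10 had a lower response in KO mice, against 8.57% of all genes.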
